A study of Mus musculus with 20 samples.

Results

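The livers of 10 mouse fetuses from pregnancies under maternal nutrient restriction (MNR) were compared with one another, litter against litter and pup against littermate. The members are the 10 pups labelled MNR out of the 20 in the series, and they form 5 litters, A to E, of 2 male pups each. All pups are CD-1 IGS mice at embryonic day 18.5, and polyA RNA was taken from the right liver lobe. The other 10 pups are unrestricted controls of the same stock, age and tissue, also 5 litters of 2, and serve here only as a background. The severity and the start of the restriction are not stated in the labels used here. Littermates share their dam, so dam, day of collection and sample handling cannot be told apart from litter.

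The fetal liver near term is a metabolic organ and a blood-forming organ at once. Hepatocytes switch on the enzymes of gluconeogenesis, amino acid breakdown and drug metabolism under the rise of glucocorticoids before birth, while red cell precursors still occupy much of the tissue and decline around and after birth. Littermates share the dam and her supply of nutrients and hormones. CD-1 is an outbred stock, so pups of different litters also differ in their alleles.

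The MNR libraries held between 16703824 and 28016953 counts, so sampling noise was small for all but the lowest genes. Values below are counts per 1e+06 reads (CPM) after TMM scaling, given for the 2 pups of a litter in the order pup 1, pup 2. No 2 MNR libraries agreed within sampling noise. Because whole tissue was sequenced, fewer cells of a type and less RNA per cell cannot be told apart in any of these values. The kit is directional per the labels, but whether counting used the strand is not given, and genes that overlap another gene are named as such where they first appear.

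Osgin1, a growth inhibitor, Capn3, a protease, Dak, a kinase, and Sult2a1, a sulfotransferase, were the named genes with the smallest p between MNR litters, and their values are given further on. Of 16898 genes tested with edgeR's quasi-likelihood F test, 240 had an adjusted p under 0.05, which is 1.42% of the genes tested, and 2900 had an unadjusted p under 0.05. In these 240 genes the highest litter lay above the lowest by a median of 1.13 on the log2 scale, against 0.36 over all genes. The median difference between littermates was nearly the same in both sets, 0.17 in the called genes and 0.19 in all. In 144 of the 240 the highest litter had at least 2 times the level of the lowest, and in 46 at least 4 times.

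How many genes passed depended on single pups. The count was 490 without pup A_1, and lay between 76 and 134 without B_1, B_2, C_1, C_2, D_1, E_1 or E_2. It was 420 without litter A and 89 to 141 without any other litter. Of the 240 genes, 45 kept their call whichever pup was left out, and 18 also kept it whichever litter was left out. Those 18 include Osgin1, Capn3, Dak, Sult2a1, Gjb2, Thrb, Akr1e1, Hsd17b13, Psat1, G6pc, Spon2 and Glo1.

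Over the whole profile, littermates resembled each other more than other pups did. The mean correlation of centred log2 profiles was 0.165 between littermates and -0.145 between other pairs, a difference of 0.310 (exact permutation test over all ways to pair the 10 pups, one-sided, p = 0.00106, the smallest it can give). The closest profile was the littermate's for 9 of the 10 pups. Littermates were alike to different degrees, with a correlation of 0.298 in litter C, 0.217 in B, 0.195 in D, 0.0860 in A and 0.0292 in E. The control litters had a mean of 0.209, and the difference of -0.0437 between the groups was smaller than the spread between litters (exact permutation test of 5 litters against 5, two-sided, p = 0.492).

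The same test in the control pups called 365 of 16954 genes, 2.15%. Both groups shared 36 called genes, which is 15.4% of the MNR genes that were tested in both and 9.97% of the control genes. The matching shares over all genes tested in both were 2.17% and 1.40%. The control count was 90 without control litter C, 114 without D and 226 without A, but 402 without B and 428 without E. Whether the groups differ in the number of litter-dependent genes was not tested.

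Litter D carried the longest list of its own. Against the mean of the other 4 litters, 113 genes were higher in litter D (0.669% of those tested) and 57 lower (0.337%). The total of 170 became 346 without A_1 and 15 to 71 without any pup of B, C, D or E. Osgin1, an oxidative-stress-induced growth inhibitor, had 198 and 219 CPM in litter D and 56.9 to 102 CPM in the other 8 pups, with no overlap (log2 change 1.48 ± 0.071 SE, adjusted p 2.4e-05). Inhbe, which encodes the activin E subunit secreted by hepatocytes, stood at 74.9 and 66.2 CPM in litter D and at 13.7 to 49.2 CPM elsewhere (1.67 ± 0.18, adjusted p 0.0136). G0s2, an inhibitor of the triglyceride lipase ATGL, was at 80.2 and 87.0 CPM against 17.7 to 48.5 CPM (1.63 ± 0.17, adjusted p 0.0105). Both pups of litter D were above all others for all of these genes.

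Further genes higher in litter D were Saa3, an acute-phase serum amyloid, by 1.57 on the log2 scale, Slc4a5, a bicarbonate cotransporter, by 1.78, and Id1, a target of BMP signalling, by 0.83. Cdkn1c, the imprinted inhibitor of the cell cycle p57, was at 376 and 373 CPM in D and 353 and 266 CPM in B, but at 125 to 211 CPM in the other 6 pups, and only litter D was called (1.08 ± 0.15, adjusted p 0.0198). Lower in litter D were Slco4c1, an organic anion transporter, by 1.47, Akr1c18, a progesterone-metabolising reductase, by 1.69, and Abcg8, one of the pair of sterol exporters, by 1.60 (Abcg8 overlaps Abcg5 on the opposite strand). In Akr1c18 and Abcg8 pup B_1 was as low as the D pups, at 0.476 and 4.88 CPM. For Slco4c1 litter C was nearly as low, at 5.05 and 5.80 CPM against 4.42 and 4.48 CPM in D. Setdb2, a histone methyltransferase gene, was at 9.63 and 17.0 CPM in D, below all others (23.5 to 88.8 CPM). Osgin1, Inhbe and G0s2 kept their between-litter call without each single pup, and the others in this paragraph, apart from Slco4c1, lost it without at least 1.

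Litter E stood out by Tat, Slco4c1 and Cyp3a genes of the hepatocyte. Its pup E_1 had more pancreatic RNA than E_2 (a marker sum of 229 against 60.5 CPM). Here 90 genes were higher than in the other litters (0.533%) and 37 lower (0.219%). The total of 127 became 207 without A_2 and 16 to 70 without B_1, B_2, C_1, C_2, D_1, E_1 or E_2. Tat, tyrosine aminotransferase and a classical glucocorticoid target, had 387 and 325 CPM in litter E and 52.5 to 138 CPM in the other 8 pups (1.86 ± 0.15, adjusted p 0.000526). Slco4c1 had 41.4 and 32.8 CPM against 4.42 to 14.5 CPM (2.34 ± 0.19, adjusted p 0.000526). No pup outside litter E reached the lower littermate of E for either gene.

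The Cyp3a cluster on chromosome 5 was also highest in litter E. Cyp3a11, a main drug-metabolising P450 of mouse liver, was at 643 and 465 CPM there and at 98.2 to 296 CPM elsewhere (1.46 ± 0.17, adjusted p 0.0066). Cyp3a41a and Cyp3a41b rose by 1.36 and 1.40, but these near-identical copies can share reads and are uncertain as separate genes. Cyp3a13, which lies apart from them on the same chromosome, also had its highest litter mean in E (0.87, adjusted p 0.0146), and was low in litter C, with 19.9 and 22.1 CPM against 77.1 to 114 CPM in all other pups (-2.16 ± 0.15, adjusted p 0.000668).

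Other genes set litter E apart downwards. Pbld1, a phenazine-biosynthesis-like domain protein, had 82.5 and 87.3 CPM against 166 to 260 CPM (-1.21 ± 0.12, adjusted p 0.0017). Tff3, a trefoil peptide of secretory epithelia, had 14.9 and 15.9 CPM, with 17.0 CPM in D_2 and 44.3 to 75.4 CPM in the other 7 pups. Spon2, a secreted matrix protein, was low in litters C and E (5.51 to 7.96 CPM) and at 14.0 to 25.2 CPM in the rest, and its contrasts were called in E (-1.27) and in A (1.14).

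**Figure D1:**
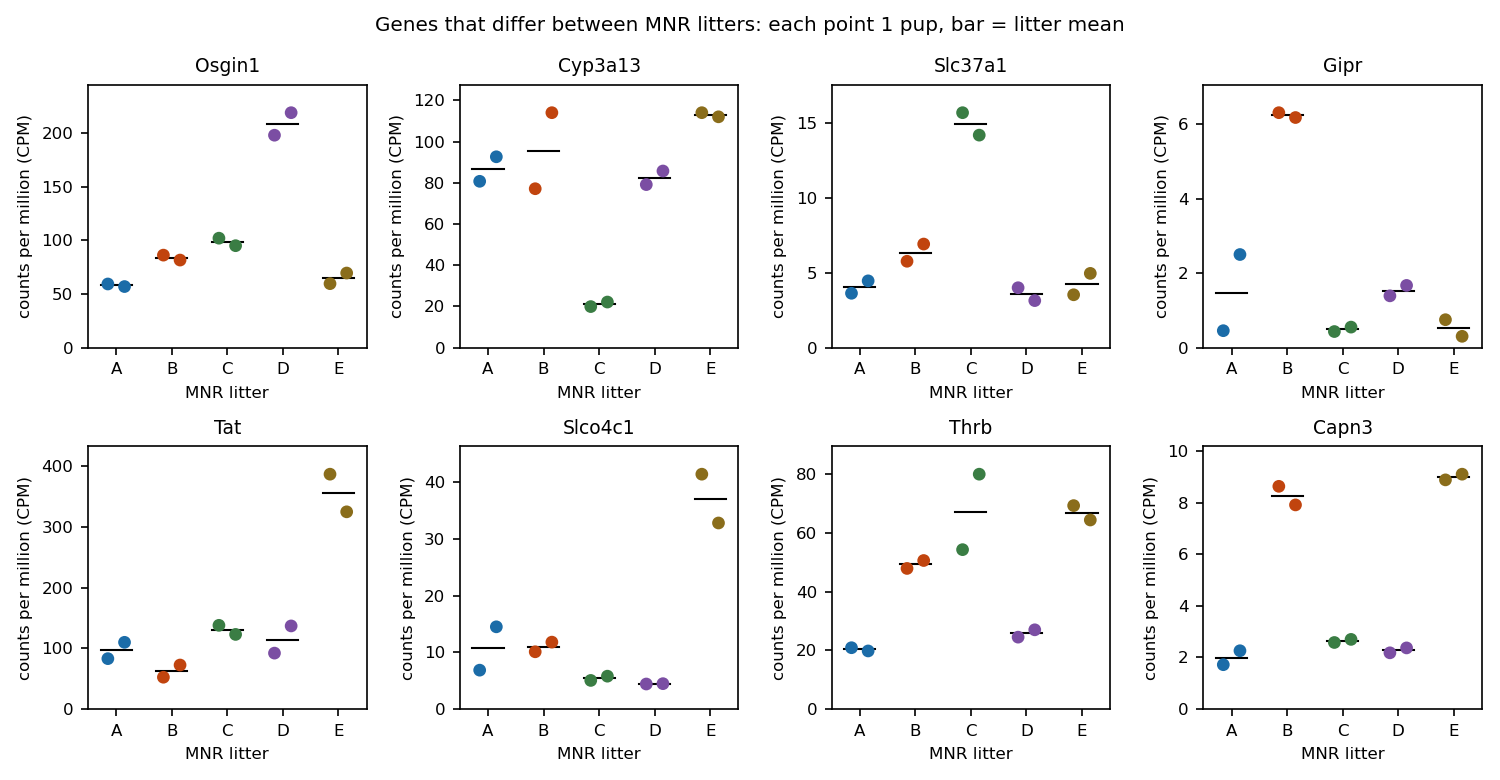
CPM on the vertical axis (linear, from 0) for 8 genes in the 5 MNR litters, with each point 1 pup and each bar the mean of 2 littermates. Osgin1 is high in litter D, Cyp3a13 low and Slc37a1 high in C, Gipr high in B, Tat and Slco4c1 high in E, Capn3 high in B and E, and Thrb low in A and D.

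Litter C had 44 higher genes (0.260%) and 14 lower (0.0829%), and this total of 58 became 151 without A_1. Slc37a1, a sugar-phosphate transporter, had 15.7 and 14.2 CPM against 3.14 to 6.92 CPM (1.75 ± 0.13, adjusted p 0.000668). Stfa1, a stefin that inhibits cathepsins, had 92.4 and 128 CPM against 32.7 to 51.8 CPM (1.51 ± 0.11, adjusted p 0.000668), though it belongs to a family of close copies and reads may be split among them. Azgp1, a secreted zinc-binding glycoprotein, had 43.5 and 47.4 CPM against 158 to 611 CPM (-2.83 ± 0.35, adjusted p 0.00877). In each case litter C lay outside the range of all other pups. Azgp1 also differed between control litters, from 5.67 to 335 CPM (adjusted p 0.00304).

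Litter B had 25 higher genes (0.148%) and 16 lower (0.0947%). Gipr, the receptor for the gut hormone GIP, had 6.31 and 6.18 CPM against 0.303 to 2.50 CPM (2.85 ± 0.35, adjusted p 0.0145). Itgb2l, an integrin beta chain of myeloid cells, had 19.4 and 24.1 CPM against 4.29 to 14.1 CPM (1.62 ± 0.19, adjusted p 0.0124). Slco1b2, the hepatocyte uptake carrier for organic anions, was lowest in B at 142 and 175 CPM against 246 to 429 CPM (-1.21 ± 0.14, adjusted p 0.00896). Krt23, a keratin, and Sgk2, a kinase of the SGK family, were each lower by 1.28. Litter B includes the pup with the most pancreatic RNA (B_1, described further on). Without B_1 no gene set litter B apart in edgeR (0 genes, 1220 at an unadjusted p under 0.05), and without B_2 there were 7. The total of 41 was 97 without A_2 and 18 to 27 without C_1, C_2 or E_2.

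Litter A had 15 higher genes (0.0888%) and 23 lower (0.136%). Me1, the malic enzyme that supplies NADPH for lipid synthesis, had 25.7 and 30.4 CPM against 10.2 to 19.9 CPM (0.93 ± 0.14, adjusted p 0.0344). Pla2g4b, a cytosolic phospholipase, had 1.46 and 0.931 CPM against 3.80 to 8.15 CPM (-2.44 ± 0.31, adjusted p 0.0194). Gdpd3, a lysophospholipase, was high in A but unevenly so, at 2.52 and 10.4 CPM against 0.346 to 0.951 CPM. The list for litter A was 156 genes without A_1, 10 without A_2, 12 without B_1, 9 without B_2, and 20 to 25 without C_1, C_2, E_1 or E_2.

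The lists of the other litters also shrank without 1 of their own pups: 10 and 31 genes in C without C_1 or C_2, 15 and 34 in D without D_1 or D_2, and 19 and 16 in E without E_1 or E_2. With a pup left out, the remaining littermate stands alone and is assumed to vary like pups of the other litters.

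Several genes split the litters into 2 sets rather than singling out one. Thrb, the thyroid hormone receptor beta, was at 19.8 to 27.0 CPM in litters A and D and at 47.9 to 80.0 CPM in B, C and E (adjusted p between litters 0.00258). Capn3, a calcium-dependent protease, was at 7.91 to 9.10 CPM in B and E and at 1.72 to 2.70 CPM in A, C and D (adjusted p 0.000933; it overlaps Ganc on the same strand). Dak, the dihydroxyacetone kinase, was at 68.3 to 80.4 CPM in B and D, 113 and 129 CPM in E and 155 to 167 CPM in A and C (adjusted p 0.00135; it overlaps Cybasc3 on the opposite strand). None of these sets overlapped.

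Sult2a1, a sulfotransferase for steroids and bile acids, spanned the widest fold among these, at 3.44 to 4.17 CPM in C and E, 0.749 to 1.42 CPM in A and D and 0.357 and 0.346 CPM in B (11.5-fold, adjusted p 0.0014). Hsd17b13, a lipid-droplet enzyme of hepatocytes, was at 36.7 to 58.2 CPM in A and C and at 121 to 375 CPM in B, D and E (7.28-fold, adjusted p 0.00319). Gjb2, the connexin 26 of hepatocyte junctions, ran from 25.9 and 27.5 CPM in B to 87.3 and 99.6 CPM in E (3.50-fold, adjusted p 0.00201). Glo1, the glyoxalase gene known for copy-number polymorphism in mice, was at 78.8 and 77.9 CPM in A, 95.6 to 98.1 CPM in D and E, and 124 to 150 CPM in B and C (adjusted p 0.0131). Glo1 was also called between control litters, from 85.9 to 248 CPM (adjusted p 0.00304).

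Called genes often lay near each other. Of the 240, 71 (29.6%) had another called gene within 500000 bases, and 18.1% of all tested genes had a called gene that close. One such stretch on chromosome 5 of mm9 holds Cyp3a13 (138334160 to 138362847), Azgp1 (138422749 to 138431461) and Stag3 (138721468 to 138753621). In litter C the first pair was low and Stag3, a cohesin subunit of meiosis, was high, at 5.44 and 4.35 CPM against 0.536 to 1.78 CPM. Stag3 lost its between-litter call whichever pup was left out.

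Lists of genes for known programmes were then set beside the whole transcriptome, using the intraclass correlation. This is 1 when littermates are identical and litters differ, near 0 when littermates are no more alike than strangers, and negative when they are less alike. Its median over all genes was 0.228 in the MNR pups and 0.326 in the controls. The highest medians among lists of at least 15 tested genes were in cholesterol synthesis (0.771), fatty acid and triglyceride synthesis (0.669), glucocorticoid targets (0.649) and targets of the stress factor ATF4 (0.648). The lists were chosen with earlier results of these data known, so these medians are descriptions.

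**Figure D2:**
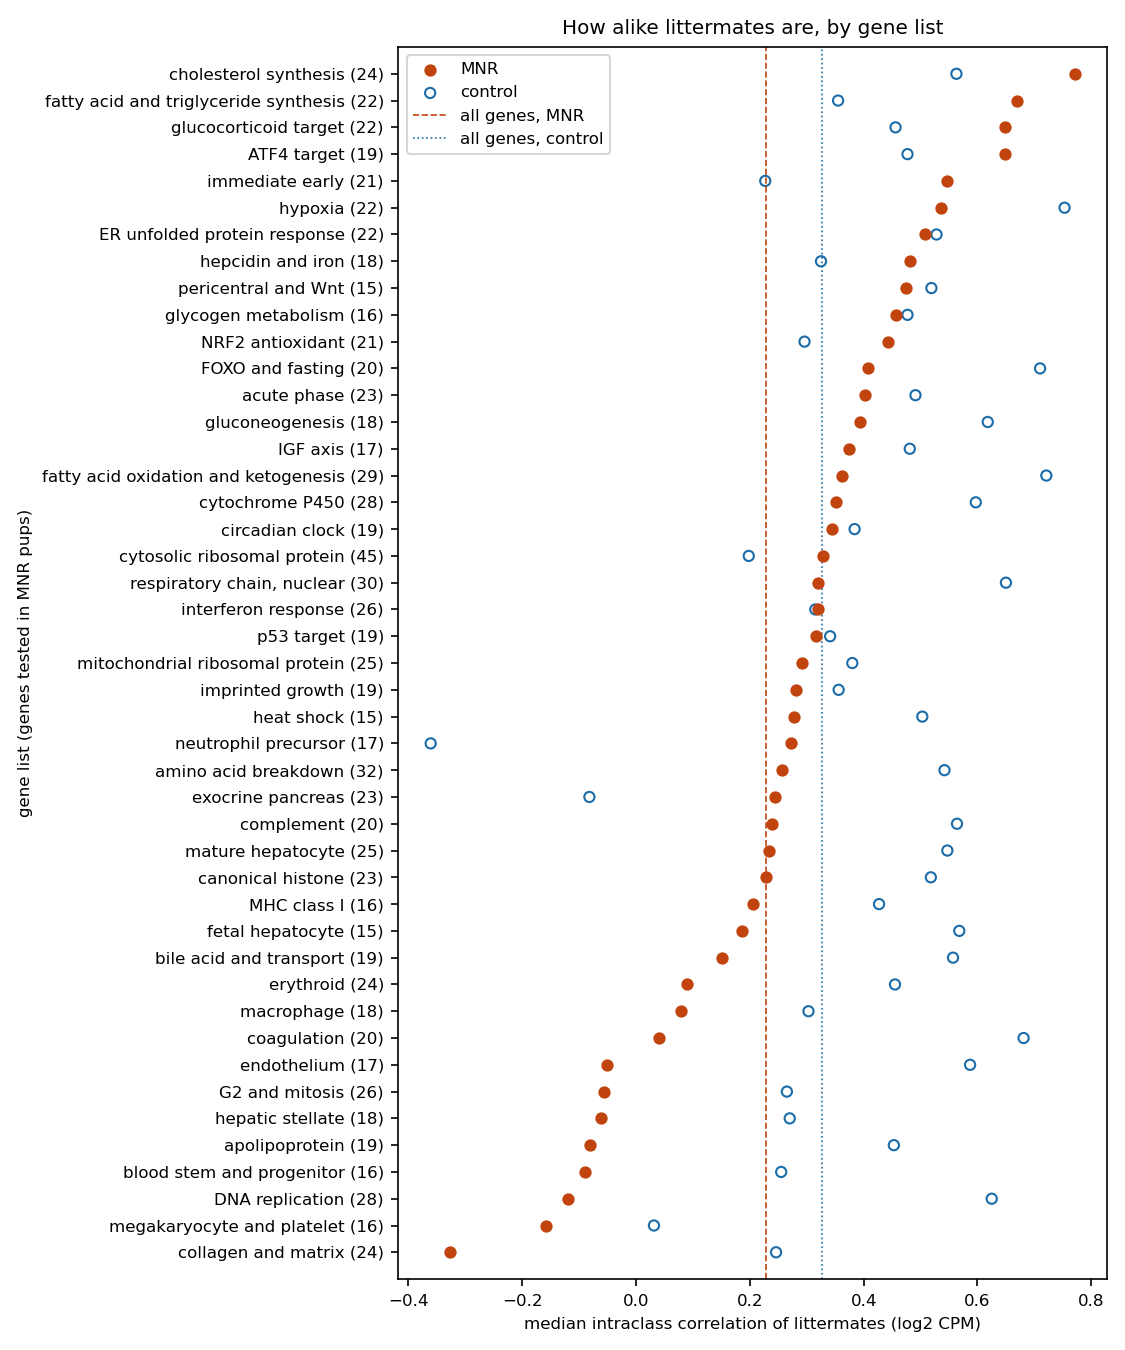
Median intraclass correlation of littermates (horizontal axis, no unit) for each gene list with at least 15 tested genes, in MNR pups (filled) and control pups (open), with the medians over all genes as vertical lines. Cholesterol synthesis is at the top for MNR pups at 0.771 and collagen and matrix genes are at the bottom at -0.327.

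Cholesterol synthesis genes shared an order of litters. Of 24 tested, 5 were called and 21 had an unadjusted p under 0.05, against 1.42% and 17.2% over all genes. The highest litter mean was in D for 20 of the 24, while 12 had their lowest in B and 9 in C. Insig1, the sterol-sensing brake on the SREBP factors, had 516 and 447 CPM in D, 226 and 244 CPM in B, and 272 to 388 CPM in the rest (adjusted p 0.02). Both D pups were above all other pups.

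Sc4mol, the sterol C4-methyl oxidase, was at 79.2 and 85.2 CPM in D, against 40.8 to 78.3 CPM. Sc5d, a sterol desaturase, had another order, with its highest values in litter A (70.2 and 70.0 CPM) ahead of D (66.7 and 61.4 CPM). Insig1 and Sc4mol lost their call without several single pups, and each kept it in 5 or fewer of the 10 fits without a pup. None of the 24 genes was called between control litters by edgeR, where their median intraclass correlation was 0.563.

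Fatty acid and triglyceride synthesis genes followed a less uniform order. Of 22 tested, 7 were called and 14 had an unadjusted p under 0.05, against 1.42% and 17.2% over all genes. 13 had their lowest litter mean in B. Scd1, the stearoyl-CoA desaturase, was at 54.8 and 64.5 CPM in B and at 79.8 to 119 CPM in the others (adjusted p 0.0182). Fasn, the fatty acid synthase, was at 73.7 and 71.6 CPM in B and highest in D at 184 and 138 CPM (2.22-fold, adjusted p 0.0285). Both B pups were the lowest 2 of the 10 for each gene. The genes that set litter B apart depended on both of its pups, as given above.

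Srebf1, the transcription factor that drives these enzymes, was instead set apart by litter D, at 153 and 134 CPM against 76.9 to 117 CPM, as was Agpat2, an acyltransferase of triglyceride assembly, at 112 and 112 CPM against 65.6 to 87.4 CPM. Scd2, the second desaturase, was also highest in D, at 549 and 404 CPM against 230 to 358 CPM. Srebf1, Agpat2 and Scd2 each overlap another gene. Mlxipl, the carbohydrate-sensing factor ChREBP, was highest in litter C at 55.6 and 48.4 CPM. Of the 5 fits without a litter, the call held in 4 for Scd1 and Agpat2 and in 3 for Fasn and Mlxipl. It held in 2 for Srebf1, Scd2 and Me1. Controls had 1 call among the 22, against 2.15% over all genes.

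Glucocorticoid targets were highest in litter E, where 14 of 22 had their highest litter mean. Of the 22, 5 were called and 16 had an unadjusted p under 0.05, against 1.42% and 17.2% over all genes. Beside Tat these were Ctgf, a matricellular growth factor (18.9 and 19.2 CPM in E against 7.57 to 13.8 CPM), Tsc22d3, the anti-inflammatory GILZ (58.4 and 54.8 CPM against 30.4 to 48.9 CPM), Fkbp5, a chaperone of the glucocorticoid receptor (260 and 256 CPM against 161 to 233 CPM), and Cdkn1a, the p21 cell-cycle inhibitor. Cdkn1a was high in both A and E (87.0 to 109 CPM) and at 50.9 to 67.0 CPM in B, C and D. Both E pups led in Tat, Ctgf, Tsc22d3 and Fkbp5. Of the 5 fits without a litter, the between-litter call held in 4 for Tat, Ctgf and Cdkn1a, 2 for Tsc22d3 and 1 for Fkbp5. Litter D was lowest for 9 of the 22, among them Tsc22d3 and Fkbp5. Controls also had 5 calls in this list, against 2.15% over all genes.

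ATF4 targets were ordered differently again. Of 19 tested, 3 were called and 13 had an unadjusted p under 0.05, against 1.42% and 17.2% over all genes. Psat1, an enzyme of serine synthesis, was at 273 and 258 CPM in B and 285 and 227 CPM in D, 163 and 211 CPM in A, and 86.2 to 123 CPM in C and E (2.68-fold, adjusted p 0.0064). Aldh1l2, of mitochondrial folate metabolism, was lowest in C (5.21 and 4.10 CPM). Shmt2, which splits serine in mitochondria, was lowest in E at 120 and 121 CPM against 149 to 184 CPM (it overlaps Ndufa4l2 on the opposite strand). With 1 litter left out, Psat1 kept its call in all 5 fits, Shmt2 in 2 and Aldh1l2 in 1. Controls also had 3 calls among 19 tested, against 2.15% over all genes, and a median intraclass correlation of 0.477.

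Glucose genes crossed these orders. G6pc, the last step of glucose release, was at 465 to 551 CPM in C and E, 386 and 329 CPM in D, and 198 to 296 CPM in A and B (adjusted p 0.00969). Pck1, which commits carbon to gluconeogenesis, had 487 and 581 CPM in C and 692 and 405 CPM in E but 95.4 and 116 CPM in B, with littermates far apart in D (158 and 396 CPM; adjusted p 0.044). In glycogen metabolism 3 of 16 were called (1.42% over all genes), among them Ppp1r3c, a targeting subunit that promotes glycogen storage, highest in D at 126 and 153 CPM against 68.5 to 121 CPM. Nr0b2, the bile-acid-induced repressor SHP, was at 7.17 to 15.1 CPM in C and D, 6.63 and 3.94 CPM in E and 1.67 to 2.62 CPM in A and B (adjusted p 0.0179). With 1 litter left out, G6pc kept its call in all 5 fits, Nr0b2 in 3, Pck1 in 2 and Ppp1r3c in 1.

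In the unfolded protein response, 2 of 22 were called and both are sensors: Ern1 (66.5 and 67.5 CPM in E, 39.7 and 40.4 CPM in D) and Atf6 (68.5 and 68.4 CPM in E, 41.4 and 44.8 CPM in D). These counts also stand against 1.42% over all genes. Ern1 kept its call in 2 of the 5 fits without a litter and Atf6 in 1. Hypoxia genes had a median intraclass correlation of 0.536 and 0 of 22 called, with 14 at an unadjusted p under 0.05 in edgeR. Immediate early genes had 0.547 and 0 of 21 called, with 12 at an unadjusted p under 0.05. Over all genes 17.2% had an unadjusted p under 0.05. Between control litters 8 of 22 hypoxia and 1 of 21 immediate early genes were called, against 2.15% over all genes. The control medians of these 2 lists were 0.753 and 0.227. Egr1, an immediate early factor, ranged from 3.23 and 3.33 CPM in A to 39.2 and 19.5 CPM in D without passing (adjusted p 0.0712).

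**Figure D3:**
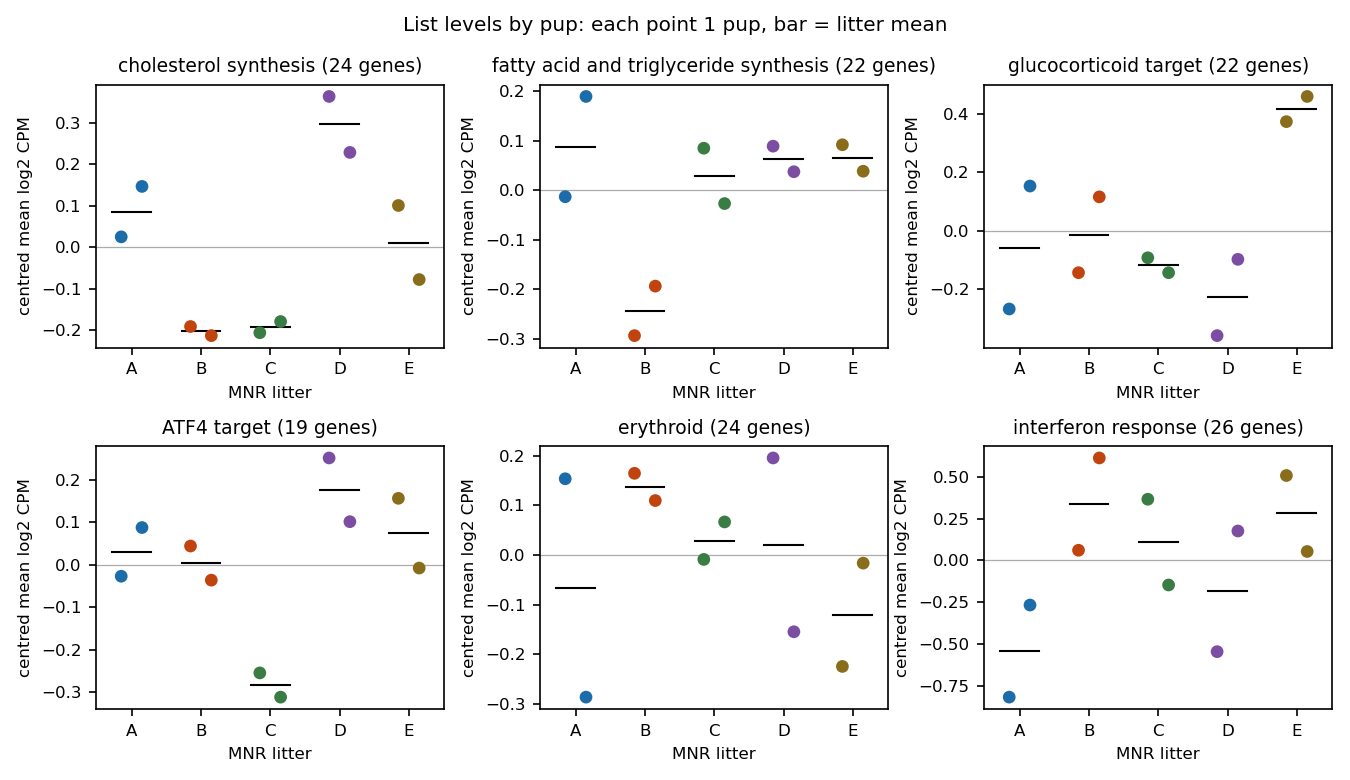
Mean centred log2 CPM (vertical axis) of 6 gene lists in each MNR pup (points) and litter (bars). Cholesterol synthesis is highest in litter D and glucocorticoid targets in litter E in both pups, while littermates lie far apart in the erythroid level in A and D, and the interferon level is lowest in A and differs between littermates in every litter.

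At the other end were lists in which littermates were no more alike than other pups. Medians were 0.0887 for 24 erythroid genes, -0.0566 for 26 genes of mitosis, -0.119 for 28 genes of DNA replication and -0.327 for 24 collagen and matrix genes. None of these genes was called between litters by edgeR, and at most 2 per list had an unadjusted p under 0.05. In the controls the same lists had medians of 0.455, 0.265, 0.625 and 0.246. The difference between the groups in these medians was not tested. Other lists of at least 15 genes also had MNR medians below that of the erythroid genes. Among them were the hepatocyte products of coagulation (0.0409) and the apolipoprotein list (-0.0817). Endothelium (-0.0512), hepatic stellate (-0.0625), blood stem and progenitor (-0.0901) and megakaryocyte and platelet genes (-0.158) were others.

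Several plasma proteins and growth factors also showed no called difference between MNR litters. Alb, albumin, lay between 70200 and 98100 CPM (adjusted p 0.955) and Afp, the fetal albumin, between 13400 and 25800 CPM (adjusted p 0.436). Igf2, the main fetal growth factor, lay between 4830 and 6560 CPM (adjusted p 0.683) and Igf1 between 19.1 and 41.5 CPM (adjusted p 0.76). The globin Hbb-b1 lay between 9720 and 15900 CPM (adjusted p 0.662), Alas2 of heme synthesis between 427 and 582 CPM (adjusted p 0.713) and the metallothionein Mt1 between 664 and 1170 CPM (adjusted p 0.43). For these genes the litter ranges overlapped.

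Of genes averaging 5 CPM or more, the 15 named for the largest littermate differences included Isg15, Irf9, Trim12c and Tgtp2 of the interferon response. Isg15, a ubiquitin-like modifier, had 2.42 and 6.37 CPM in A, 9.35 and 18.6 in B, 16.2 and 10.6 in C, 2.68 and 6.92 in D, and 20.1 and 6.12 in E. Irf9, a factor of interferon signalling, had 21.5 and 88.3 CPM in D and 25.2 and 59.6 CPM in A, and its intraclass correlation was -0.826 (it overlaps Rnf31). Trim12c and Tgtp2, an antiviral TRIM gene and a GTPase, also differed most in D, with 3.10 and 17.8 CPM and 7.10 and 32.2 CPM. In edgeR the interferon list as a whole had 0 of 26 genes called between litters. It had 10 at an unadjusted p under 0.05, against 17.2% over all genes. Its median intraclass correlation of 0.319 was above the 0.228 of all genes, and 19 of the 26 had their lowest litter mean in A and 14 their highest in B. The list level spanned 0.879 between litters and differed by a mean of 0.558 between littermates.

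Hamp, hepcidin, the iron-regulating hormone, had 82.8 and 185 CPM in D and 5.30 and 51.2 CPM in E (adjusted p 0.136). Tdo2, the tryptophan dioxygenase that rises toward birth, had 4.29 and 14.4 CPM in B and 4.35 and 12.9 CPM in D (adjusted p 0.484). Cwc22, a splicing factor with multiple copies in some mouse strains, had 15.1 and 142 CPM in E and 62.4 and 259 CPM in C, and reads of copies cannot be separated here.

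A pancreatic gene had the largest mean littermate difference of the genes with at least 5 CPM. Ctrb1, chymotrypsinogen, had 73.4 and 10.6 CPM in B, 52.2 and 0.101 CPM in E, and at most 0.833 CPM in the other 6 pups. The summed level of the 29 exocrine pancreas markers was 338 CPM in B_1, 229 CPM in E_1, 110 CPM in B_2 and 53.1 to 74.4 CPM in the other 7 pups. The pups with the most pancreatic RNA also had the highest scores on the first principal component (34.9 in B_1, 25.9 in E_1 and 17.7 in B_2, against at most -2.68 elsewhere), which held 20.8% of the variance. Of 23 pancreas genes tested, 1 was called between litters, Cpb1, and 16 had an unadjusted p under 0.05. Over all genes these shares were 1.42% and 17.2%. With the pancreas level as a covariate 96 genes were called between litters, and without B_1 and E_1 there were 31, of which 25 were among the 240. Of the 81 genes with a call whose single results were followed through all settings, 42 lost it with the covariate and 65 without the 2 pups, a fit that also has fewer libraries. Osgin1, Capn3, Dak, Sult2a1, Cyp3a13, Gjb2, Thrb, Slc37a1, Stfa1, Hsd17b13, Azgp1 and Itgb2l kept theirs without the 2 pups.

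**Figure D4:**
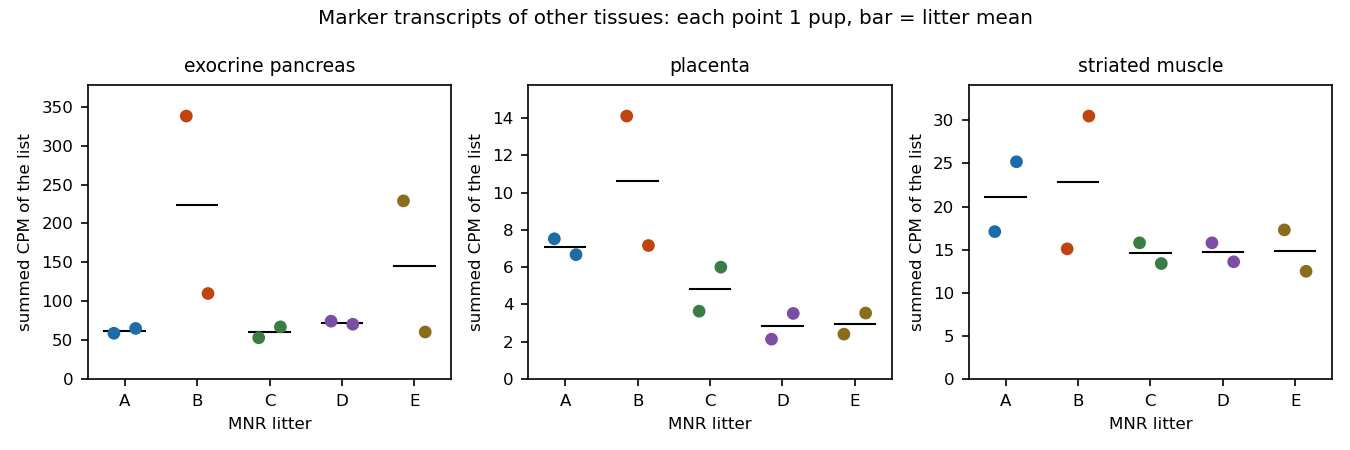
Summed CPM (vertical axis, from 0) of marker genes of exocrine pancreas, placenta and striated muscle in each MNR pup (points) with litter means (bars). Pancreas transcripts peak in B_1 (338) and E_1 (229), placenta transcripts in B_1 (14.1) and muscle transcripts in B_2 (30.5) and A_2 (25.2).

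Placental and muscle transcripts were far scarcer. The placenta list, written after the principal components were seen, summed to 14.1 CPM in B_1, 7.52 in A_1, 7.16 in B_2 and 6.67 in A_2, and to at most 6 CPM in the other pups. Of its 5 tested genes 1 was called and 5 had an unadjusted p under 0.05, against 1.42% and 17.2% over all genes. The called gene was Tpbpa, a trophoblast protein, at 2.80 and 1.33 CPM in B and 0.0357 and 0.0640 CPM in D. Muscle markers summed to 30.5 CPM in B_2, 25.2 CPM in A_2 and 12.5 to 17.3 CPM elsewhere. Of the 10 tested, edgeR called 0 and 5 had an unadjusted p under 0.05, against 17.2% over all genes. Without the 2 pups richest in placental transcripts 240 genes were called between litters, 119 of them among the first 240.

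Covariation between littermates was tested against the erythroid level, the mean log2 CPM of the erythroid list. This level differed by 0.441 between the pups of litter A (A_1 higher) and by 0.350 in litter D (D_1 higher). It differed by 0.208 in E (E_2 higher), 0.0757 in C (C_2 higher) and 0.0546 in B (B_1 higher). With litter differences removed, 19 genes outside the list rose with it (0.113%) and 82 fell (0.486%).

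The genes of smallest p that rose included genes of the cell cycle. Tmcc2, a coiled-coil protein, had 390 and 241 CPM in A and 458 and 320 CPM in D, and the higher-erythroid pup was higher in all 5 litters (1.60 ± 0.17 per log2 unit, adjusted p 0.0164). Ypel4, E2f2, an activator of S phase, Birc5, the mitotic survivin, Lrp3 and Plagl2 also rose, with slopes of 1.15 to 2.39. All 28 genes of DNA replication and all 26 of mitosis had slopes above 0. Their medians were 0.704 and 0.909, against 0.0064 over all genes. In each list 1 gene passed as rising, to be read against 0.113% of all genes.

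Several lists of hepatocyte genes fell with the erythroid level. Over all genes 50.5% of slopes were above 0. This was so in 1 of 25 mature hepatocyte, 0 of 20 coagulation and 0 of 8 urea cycle genes. Fetal hepatocyte genes were mixed, with 6 of 15 above 0. The single genes of smallest p that fell were of varied function. Rab30, a small GTPase, had 34.5 and 88.7 CPM in A, 17.8 and 39.0 in D and 47.7 and 40.4 in E (-2.91 ± 0.32, adjusted p 0.0171). Adra2a, the alpha-2A adrenergic receptor, had 11.9 and 41.0 CPM in A and 3.64 and 10.9 CPM in D (-4.04 ± 0.42, adjusted p 0.0164). Serpina5, the protein C inhibitor, had 2.12 and 8.29 CPM in A and 3.78 and 13.4 CPM in D (-4.91 ± 0.43, adjusted p 0.0141). In litters A, D and E, whose littermates differ most in the erythroid level, the pup with less of it was higher in all 3 genes.

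Nr1d1, which encodes the clock repressor REV-ERB alpha, fell with the erythroid level as well (-3.29 ± 0.45, adjusted p 0.0294), with 4.89 and 13.3 CPM in A and 2.60 and 7.62 CPM in D, and did not differ between litters (adjusted p 0.573). It overlaps Thra on the opposite strand. Igfbp1, the fasting-induced binding protein of IGFs, fell by 1.83 per unit (adjusted p 0.0459), from 5470 to 3020 CPM between A_2 and A_1. Nlrp12, Map3k6 and Acer2 fell with slopes of -1.96, -1.78 and -1.89. By list, 5 of 26 interferon genes fell, 3 of 20 fasting genes, 3 of 32 genes of amino acid breakdown, 2 of 18 of gluconeogenesis and 2 of 28 P450 genes, each to be read against the 0.486% of all genes.

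The erythroid result rested on litters A and D. Without litter A, or without litter D, edgeR called 0 genes (1483 and 1831 at an unadjusted p under 0.05), without litter C 21 and without litter B 48. In the control pups the same fit called 0 genes, with 1721 at an unadjusted p under 0.05, and whether the slopes differ between the groups was not tested.

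**Figure D5:**
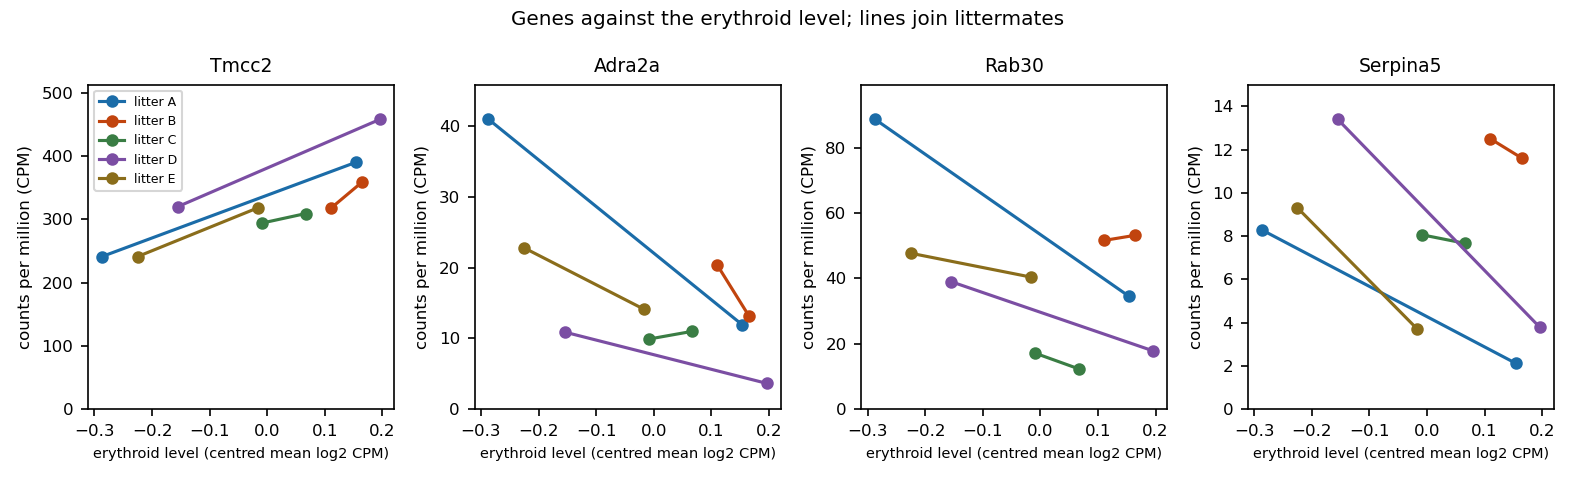
CPM of 4 genes (vertical axes, from 0) against the erythroid level of each MNR pup (horizontal axis, centred mean log2 CPM), with lines joining littermates. Tmcc2 rises with the level in every litter, and Adra2a, Rab30 and Serpina5 fall between the littermates of A, D and E.

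For the other 3 levels few single genes passed. Of the genes outside each list, 1 fell with the cholesterol synthesis level (0.00593%), 4930517O19Rik, named here after its values were seen, and none rose (636 at an unadjusted p under 0.05 in edgeR). 4930517O19Rik was near 0 or at several CPM with littermates on opposite sides in litters A and E, at 6.51 and 0.294 CPM in A and 0.161 and 6.78 CPM in E. Slc25a47, a mitochondrial carrier of hepatocytes, alone rose with the glucocorticoid target level (0.00593%), and none fell (1889 at an unadjusted p under 0.05). It had 110 and 336 CPM in A, 124 and 200 in B, 309 and 255 in C, 175 and 303 in D, and 275 and 273 in E. Without litter B there were 66 such genes and without E there were 3, but edgeR called 0 without A, C or D (1254, 1648 and 1216 at an unadjusted p under 0.05). The cholesterol gene was lost without litter E (0 genes, 560 unadjusted). With the immediate early level edgeR found that 0 genes rose or fell (0.00%), with 1193 at an unadjusted p under 0.05, and 9 passed without litter D. Slopes on the glucocorticoid target level were above 0 in 0 of 28 replication, 0 of 26 mitosis and 0 of 24 erythroid genes, with medians of -0.585, -0.727 and -0.82. On the immediate early level they were above 0 in 1, 0 and 0 of the same genes, with medians of -0.473, -1.02 and -0.714, and none of these genes passed.

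Across the 10 pups, which are only 5 independent litters, list levels were correlated as follows, with genes shared by 2 lists left out. The pairs given were picked for large r out of many pairs compared, and some other large ones are left out. The gluconeogenesis level had r = -0.907 with the erythroid level and 0.886 with the urea cycle level. The erythroid level had r = 0.856 with the mitosis level and -0.893 with the urea cycle level, and in all 5 litters the littermate with more of the erythroid genes had less of the urea cycle genes. Cholesterol synthesis had r = 0.781 with ATF4 targets, and glucocorticoid targets had r = 0.806 with fasting genes of the FOXO factors. Littermate differences had the same sign in 4 of 5 litters for the first pair but in 2 of 5 for the second, whose litter means had r = 0.855. These values are descriptions, since each level is a share of the same library.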

How the data were processed

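Counts of polyA RNA reads per transcript were made and deposited by the authors, 1 file for each pup. Per the submitters' processing notes FastQC, Bowtie2, edgeR and DESeq2 were used with the mm9 build; no counting tool, version, strand setting or treatment of reads with several matches is stated there. Transcript counts were summed to genes with the GENCODE M1 annotation of mm9. The deposited gene table was not used here. Samples were grouped by litter from the labels, and p-values measure only the spread between these pups. Genes were kept by filterByExpr (minimum count 10, litter as group), scaled by TMM and tested in edgeR 4.0.16 (R 4.3.3) by the quasi-likelihood F test with Benjamini-Hochberg adjustment, threshold 0.05: first over the 4 litter coefficients, then 1 litter against the mean of the other 4, then a list's mean log2 CPM (prior count 2) beside litter. SE is the log2 change over the root of its F. The scripts were tested on simulated data: where the spread varied from gene to gene, the false share of calls in edgeR's litter test ran above the nominal level.

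The members and the gene lists were chosen with earlier results of these data known. Of the list symbols, 1151 matched the annotation, 12 matched by another symbol and 11 did not match. The naming rule took genes that passed between litters with a mean of at least 1 CPM and no predicted or clone-based name. These were the 15 of smallest p, the 15 of widest log2 range, and the 4 largest rises and falls per litter. It took others needing no such pass: up to 4 per list, the 15 largest littermate differences above 5 CPM, and 21 fixed genes. For each covariate level it took up to 6 genes per direction that moved with it. Sc4mol, Srebf1, Fkbp5 and 4930517O19Rik are outside that rule and were named after their values were seen. Some genes that the rule takes are not reported here. Alternatives were other scalings, filters, DESeq2 1.42.0, limma 3.58.1, added covariates, and leaving out each pup or litter.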

Additional observations from a re-analysis of the deposited data

Results flagged for a closer look

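Among the genes named here and the gene lists with at least 3 tested genes, 2 values stood far from those of the other 9 MNR pups on the log2 scale. Of 116 genes and 66 lists examined this way, chance marks about 1 in 20. Myh7b, a myosin heavy chain gene that overlaps Trpc4ap on the opposite strand, had 1.41 CPM in pup D_2, and 7.57 to 27.4 CPM in the other 9 pups. The heat shock list had a centred log2 level of 0.490 in pup C_1, above its littermate C_2 at 0.0371 and all other pups.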

How the results depend on the processing

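The number of genes called between MNR litters was 900 with DESeq2's likelihood ratio test, 577 with all 20 pups in 1 fit, 720 with the erythroid level and 96 with the exocrine pancreas level as a covariate, 42 at a threshold of 0.01 and 694 at 0.1. Without the 2 pups richest in pancreas transcripts, chosen after seeing the data, it was 31. Leaving out 1 pup or 1 litter gave 76 to 490. Other scalings, filters, limma and the other fits gave 210 to 358. Pup numbers did not pair the pups (correlations of pup differences between litters ran from -0.0649 to 0.172, above 0.1 in 3 of 10 pairs); with pup number as a replicate block the count stayed at 240, of which 202 were the same genes, and in controls it was 149.

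Between control litters DESeq2 called 1531 genes, and leaving out 1 litter gave 90 to 428. Leaving out 1 pup, the genes that set a litter apart numbered 9 to 156 in A, 0 to 97 in B, 10 to 151 in C, 15 to 346 in D and 16 to 207 in E. The correlation of MNR littermates minus that of other pairs ran from 0.255 to 0.438. The MNR minus control difference was -0.0978 with genes of at least 10 CPM only and below 0 in the other settings. Genes following the erythroid level numbered 0 to 103 without 1 litter, 0 in control pups and 0 without litters A and D, chosen after seeing the data. For cholesterol synthesis these were 0 to 1 without 1 litter and 0 in controls, for glucocorticoid targets 0 to 66 and 3, and for immediate early genes 0 to 9. The causes of these shifts were not tested. Genes below about 1 CPM rest on few counts.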
